A study of Homo sapiens with 48 samples.

Results

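The comparison of carfilzomib with DMSO in H-23, an established human lung cancer cell line, was examined across all genes. Its members are the 6 RNA-seq libraries of this line among the 48 of the series: 3 from cells given carfilzomib for 24 h and 3 from cells given the solvent DMSO. They were chosen by the labelled cell line and treatment. The series applied the same design to 7 further cancer lines, 6 libraries each, and its title points to HSP70 chaperones in the response to proteasome inhibition. Per the labels, the cells were grown in flat culture, the 3 replicates of a group are biological replicates, and carfilzomib was given at its IC50 for proteasome activity in each line. No further allele, agent or modification is named for either group, so the drug is the only labelled difference between them. H-23 is 1 line of 1 tumour, and its replicates are cultures of that line. No source used here gives the drug concentration for H-23.

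The proteasome is a barrel of catalytic and structural subunits capped by a regulatory particle that recognises ubiquitin-tagged proteins, unfolds them and feeds them into the barrel. Carfilzomib is a peptide epoxyketone that binds its chymotrypsin-like subunit PSMB5 irreversibly. In many cells a blocked proteasome leads to 3 well-known transcriptional programmes: new proteasome subunits through the factor NRF1 (gene NFE2L1), heat shock proteins through HSF1, which binds inverted repeats of the unit NGAAN, and antioxidant genes through NRF2. Drugs of this class are used against multiple myeloma, a tumour of plasma cells, and lung cancer lines serve as models of solid tumours.

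The promoters of 8 genes are shown because matches to sites that such factors are known to bind, some of them loose, lie in them. These genes rose, fell or stayed level in H-23. Each is the 250 bases before the start of the gene in RefSeq on GRCh38.p14, given as genome position of the interval, strand and sequence from 5′ to 3′ of the gene. Capitals mark the motif, searched on both strands. In the heat shock genes HSPA6 (chr1:161524290-161524539, plus strand), HSPB8 (chr12:119178681-119178930, plus strand) and HSPA8 (chr11:123062137-123062386, minus strand) the capitals mark GAANNTTC, a pair of heat shock units head to head.
HSPA6: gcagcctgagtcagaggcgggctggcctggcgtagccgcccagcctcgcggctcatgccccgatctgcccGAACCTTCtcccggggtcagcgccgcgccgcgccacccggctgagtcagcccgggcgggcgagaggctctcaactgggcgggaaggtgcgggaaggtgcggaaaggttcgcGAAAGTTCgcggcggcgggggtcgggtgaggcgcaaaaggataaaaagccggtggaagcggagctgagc
HSPB8: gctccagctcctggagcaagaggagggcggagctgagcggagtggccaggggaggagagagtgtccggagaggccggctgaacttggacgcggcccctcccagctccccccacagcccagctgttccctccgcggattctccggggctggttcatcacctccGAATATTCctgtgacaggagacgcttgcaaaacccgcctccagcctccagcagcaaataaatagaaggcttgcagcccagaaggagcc
HSPA8: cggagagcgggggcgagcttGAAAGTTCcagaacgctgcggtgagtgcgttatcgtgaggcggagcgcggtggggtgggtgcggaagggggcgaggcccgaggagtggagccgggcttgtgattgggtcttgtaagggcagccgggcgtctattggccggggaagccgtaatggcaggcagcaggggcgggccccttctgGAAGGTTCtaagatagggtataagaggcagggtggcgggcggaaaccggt
In ME1 (chr6:83431052-83431301, minus strand), MMP10 (chr11:102780629-102780878, minus strand) and ANKRD1 (chr10:90921088-90921337, minus strand) they mark TGANTCA, a pattern looser than the AP-1 site, which has C or G at its centre. ME1 holds TGACTCA, which is that site, while TGAATCA in MMP10 and TGATTCA in ANKRD1 match the loose pattern only. In ME1 this match overlaps one to TGACNNNGC, the core of the antioxidant response element that NRF2 binds, so the capitals there span both.
ME1: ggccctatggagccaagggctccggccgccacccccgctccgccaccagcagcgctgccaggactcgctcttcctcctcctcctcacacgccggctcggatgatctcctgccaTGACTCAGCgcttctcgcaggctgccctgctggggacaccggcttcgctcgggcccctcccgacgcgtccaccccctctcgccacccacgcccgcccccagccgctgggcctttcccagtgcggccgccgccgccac
MMP10: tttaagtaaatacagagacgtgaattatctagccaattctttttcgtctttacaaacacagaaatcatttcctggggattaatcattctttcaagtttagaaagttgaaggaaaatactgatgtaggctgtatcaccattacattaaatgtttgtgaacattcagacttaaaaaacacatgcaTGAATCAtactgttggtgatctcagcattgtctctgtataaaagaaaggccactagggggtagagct
ANKRD1: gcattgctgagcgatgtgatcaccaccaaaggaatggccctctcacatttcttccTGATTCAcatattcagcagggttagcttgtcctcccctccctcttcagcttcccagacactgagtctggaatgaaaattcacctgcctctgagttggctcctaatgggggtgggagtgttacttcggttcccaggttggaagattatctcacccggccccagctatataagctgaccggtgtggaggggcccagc
In CENPA (chr2:26785806-26786055, plus strand) they mark TTTGAA, the cell cycle homology region, and CCAAT boxes (ATTGG on the other strand). In the histone gene H3C2 (chr6:26032100-26032349, minus strand) they mark TATAAA and CCAAT.
CENPA: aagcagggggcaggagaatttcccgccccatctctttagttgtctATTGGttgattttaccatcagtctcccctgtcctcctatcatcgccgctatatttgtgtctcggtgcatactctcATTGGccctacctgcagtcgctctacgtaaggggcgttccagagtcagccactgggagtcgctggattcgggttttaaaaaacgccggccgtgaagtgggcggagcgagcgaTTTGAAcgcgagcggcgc
H3C2: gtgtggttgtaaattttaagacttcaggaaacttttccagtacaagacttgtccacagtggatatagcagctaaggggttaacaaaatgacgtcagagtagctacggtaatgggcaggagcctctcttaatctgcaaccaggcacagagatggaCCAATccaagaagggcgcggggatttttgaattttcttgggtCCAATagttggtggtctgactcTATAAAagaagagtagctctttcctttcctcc
HSPA6 held the heat shock pair at 180 and 69 bases before its start, HSPB8 at 88, and HSPA8 at 230 and 50. Of the 14 listed chaperone genes with a single start in RefSeq, 9 held GAANNTTC, against 4.09% of the 9018 tested genes with such a promoter. It was present in 4 of the 8 of them that were called higher, so HSPA8, which did not change, was not alone in carrying it without a rise. The pattern TGANTCA lay 137 bases before the start in ME1, 67 in MMP10 and 195 in ANKRD1. The HSPA6 promoter also held it, as TGAGTCA, which is not in capitals there. This loose pattern was in 5 of the 11 promoters found among the 12 largest rises, and in 4.26% of tested genes. TTTGAA stood in 13 of 26 promoters of genes of G2 and mitosis, against 8.82% of tested genes. TATAAA was in 35 of 53 promoters of replication-dependent histones, against 6.25%, and CCAAT in 45 of 53, against 35.1%. These matches describe the sequences and were not tested against the changes in RNA. No promoter was taken for CDH1, MMP1, DUSP5 or HMOX1.

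Library totals ran from 19.7 to 55.0 M (mega) counts per library. Library depth overlapped between the groups, with 27.3 to 55.0 M for DMSO and 19.7 to 37.8 M for carfilzomib. The first principal component, 57.1% of the variance, set the treatments apart, and the second, 12.3%, set carfilzomib replicate 3 apart from carfilzomib replicates 1 and 2. The keratins KRT8 and KRT18 and the mesenchymal filament VIM were well detected, with 1673, 1732 and 1777 CPM of VIM under DMSO, which is common in cultured carcinoma lines. Of the other epithelial markers, CDH1 had 108 to 116 CPM under DMSO. KRT7, KRT19 and EPCAM were low there, with at most 1.66, 4.41 and 4.98 CPM. CPM are counts per mega count of the library, with the library size corrected by its TMM factor. Markers of lung alveoli were near the detection limit: SFTPB and NAPSA were the only ones with more than 10 counts in every library, and the summed level of the 4 measured markers was 3.90 to 5.01 CPM under DMSO and 3.91 to 5.06 after carfilzomib. Of 6 blood and plasma cell markers CD3E was at 0 and PTPRC and TNFRSF17 near it, and their sum, 195 to 203 CPM under DMSO and 137 to 151 after carfilzomib, was nearly all SDC1, which carcinoma cells also make. Of 5 neuroendocrine markers CHGA was at 0 and SYP made up most of a sum of 9.65 to 13.7 CPM. The 4 colon markers, mostly CDX2, summed to 6.44 to 7.19 CPM under DMSO and 6.25 to 6.87 after carfilzomib. The 4 pancreas markers summed to 0.190 to 0.692 and 0.0572 to 0.202 CPM. Of 18042 genes tested, 6121 were called (33.9%), 3192 higher (17.7%) and 2929 lower (16.2%). A call is an adjusted p under 0.05. This large share is the background for the counts below, and a list with about that share called is not set apart. Changes of at least 2-fold were few: 211 higher (1.17%) and 126 lower (0.698%). Carfilzomib and DMSO libraries did not overlap for 45.7% of tested genes. The median log2 fold change of all tested genes was 0.0025. Small changes depended on the libraries fitted together: in 1 fit with the libraries of all lines the calls of NFE2L1, HSP90AB1, TXNRD1, MTHFD2, SHMT2, MDM2, KRT18, VIM, RPLP0, MT2A, EEF1A1 and RMRP, described below, were lost (edgeR adjusted p from 0.073 to 0.355). A change given below as a number alone is a log2 fold change, and ± after it is the SE.

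**Figure D1:**
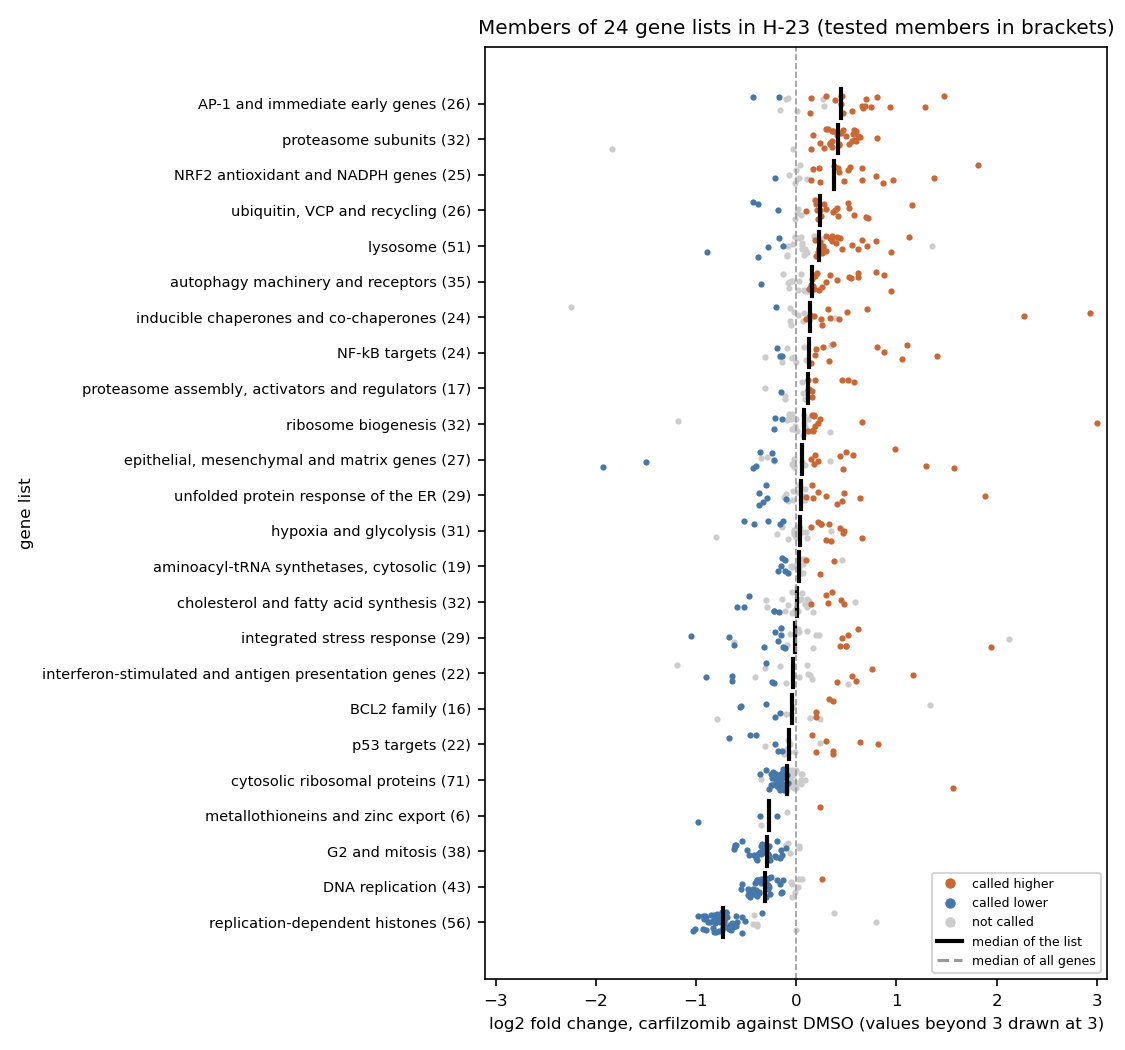
Log2 fold change of each tested member (points) of 24 gene lists in H-23, carfilzomib against DMSO, with the list's median (black bar) and the median of all genes (dashed line). Proteasome subunits and genes of the AP-1 list lie mostly to the right with medians of 0.42 and 0.45, and histones mostly to the left with a median of -0.73.

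The subunits of the proteasome itself rose almost as a block. Of 32 tested, 30 were called higher and none lower, with a median log2 fold change of 0.42, while 17.7% of all genes were called higher. The 30 were also the subunits whose libraries did not overlap between the groups. PSMD2 (ENSG00000175166, chromosome 3, 184298709 to 184309054, plus strand), a large subunit of the base of the regulatory particle, led with 229.6, 231 and 234 CPM in the DMSO libraries and 400.5, 417 and 399 after carfilzomib. This is a 1.75-fold rise, log2 fold change 0.81 ± 0.032 (SE), adjusted p 1.1e-09. Every carfilzomib library lay above every DMSO library by more than the spread within either group. PSMC6, an ATPase of the base, went from 153, 150.1 and 151 to 225, 247 and 234 CPM (0.64 ± 0.039). PSMD12, a subunit of the lid, stood at 119, 127 and 129.5 CPM and then at 184, 201 and 190.3 (0.62 ± 0.045). PSMA2, part of the outer ring of the barrel, showed a change of the same size, with 197, 201 and 204 CPM under DMSO and 298, 310.4 and 299.5 after the drug (0.59 ± 0.034). PSMB5, the subunit that carfilzomib binds, had 194, 202 and 202 CPM under DMSO and 246, 259 and 249.9 after carfilzomib, a log2 fold change of 0.34 ± 0.036 (adjusted p 6.5e-06). Its libraries did not overlap either. The 2 subunits not called were PSMD7 at -0.029 ± 0.042 (adjusted p 0.651) and PSMC4, whose row shares its identifier with others and is uncertain. PSMB10, a catalytic subunit of the immunoproteasome and the only tested member of that list, fell from 19.9, 19.7 and 18.5 to 14.8, 13.02 and 16.2 CPM (-0.40 ± 0.086, adjusted p 0.0024).

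Genes that build, activate or regulate the proteasome changed less evenly, with 9 of 17 called higher and 1 lower (median 0.11). PSME4, an activator that caps the barrel in place of the regulatory particle, rose from 143, 142 and 145 to 204, 228 and 211 CPM (0.58 ± 0.042). POMP, the chaperone of barrel assembly, rose by 0.46 and NGLY1, the glycanase needed to activate NRF1, by 0.51 on the log2 scale. The RNA of NRF1 itself, NFE2L1, changed little, with 229, 216 and 233 CPM and then 242, 254 and 245 (0.13 ± 0.037, adjusted p 0.016). The assembly factor PSMG3 was the member that fell (-0.15). The count of 9 higher was 4 without carfilzomib replicate 2 or DMSO replicate 2, and 5 without carfilzomib replicate 3 or DMSO replicate 1 or with library totals as the scale. The call of NFE2L1 was lost without carfilzomib replicate 2 (edgeR adjusted p 0.072) or DMSO replicate 2 (0.123).

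Upstream of the proteasome, 19 of 26 genes of ubiquitin supply, the VCP segregase and ubiquitin recycling were called higher and 3 lower, with a median of 0.24. UCHL1, a deubiquitinase best known from neurons, more than doubled: 265, 252 and 261 CPM under DMSO and 578, 568 and 583 after carfilzomib (1.15 ± 0.032, adjusted p 5.3e-11). ZFAND2A, a stress-inducible partner of the regulatory particle, rose by 0.72, and UFD1 and NSFL1C, cofactors of VCP, by 0.70 and 0.53. VCP, which pulls ubiquitin-tagged proteins out of complexes and membranes, went from 1465, 1418 and 1456 to 1779, 1767 and 1779 CPM (0.30 ± 0.024). UBB, a stress-responsive polyubiquitin gene, fell from 880.3, 877 and 883 to 662, 684 and 678 CPM (-0.38 ± 0.027, adjusted p 1.3e-07), with no overlap between the groups.

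**Figure D2:**
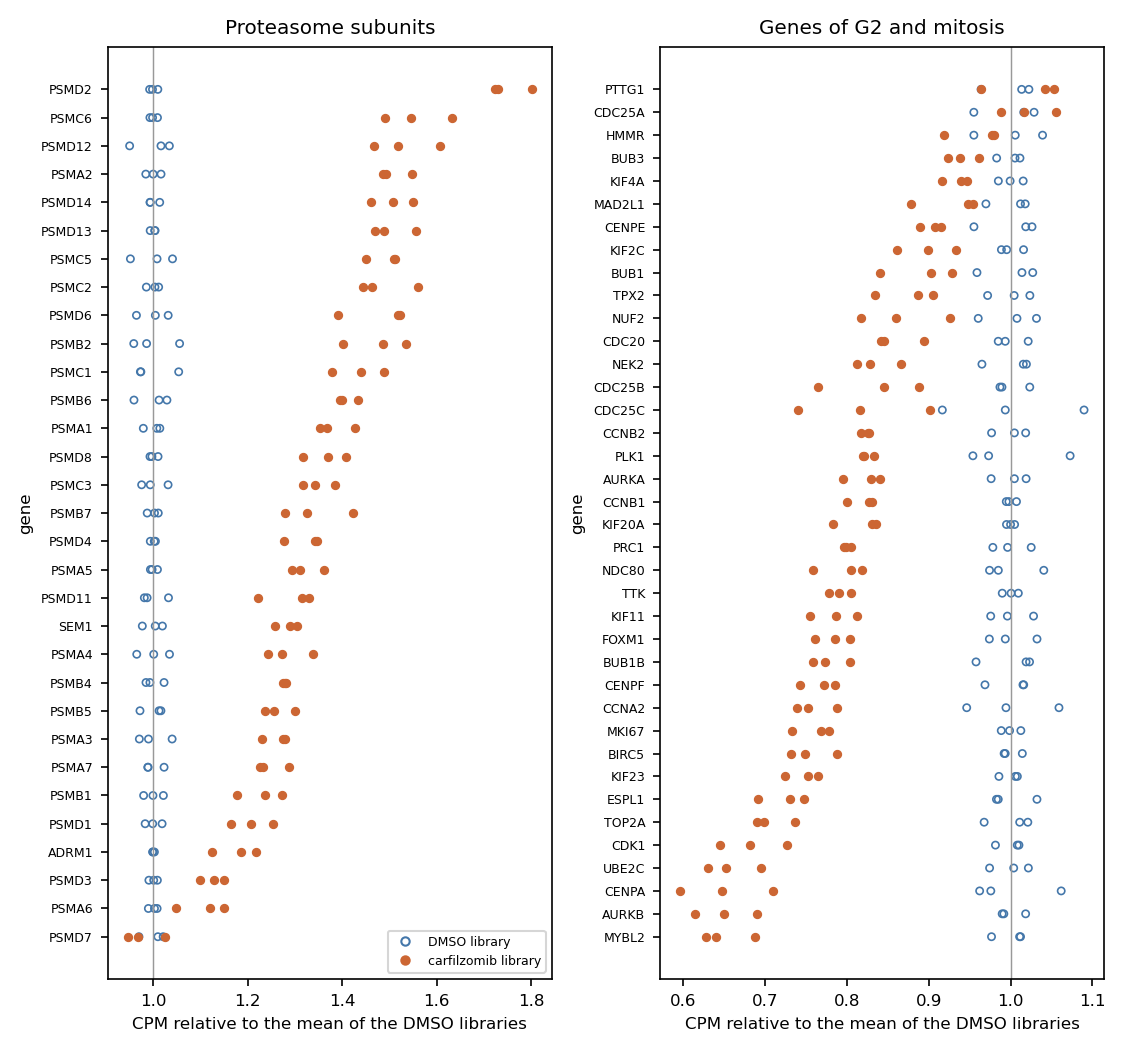
CPM of each library relative to the mean of the DMSO libraries for proteasome subunits with a row of their own (left) and genes of G2 and mitosis (right), with open points for DMSO and filled points for carfilzomib, 3 of each per gene. Apart from PSMD7, carfilzomib points lie to the right of the DMSO points on the left, and they lie to the left of them for most genes on the right.

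A few inducible heat shock genes rose several-fold, while the constitutive chaperones HSPA8, HSPD1 and HSP90AB1 stayed within 0.13 of no change on the log2 scale. Of 24 chaperones and co-chaperones tested, 13 were called higher and 1 lower, with a median of 0.13. HSPB8 (ENSG00000152137, chromosome 12), a small heat shock protein that passes clients to autophagy, rose most of all genes named by their rank: 2.11, 1.57 and 1.92 CPM in the DMSO libraries and 14.2, 14.6 and 14.5 after carfilzomib, a log2 fold change of 2.93 ± 0.13 (adjusted p 2.3e-09). HSPA6 (ENSG00000173110, chromosome 1), a strictly stress-inducible HSP70, stood at 4.99, 4.48 and 5.81 and then at 24.5, 24.00 and 26.3 CPM (2.28 ± 0.098). These genes had no overlap between groups, and the carfilzomib libraries were close together. The summed rows of HSPA1A and HSPA1B, the main inducible HSP70 genes, had 6.34, 6.66 and 5.74 CPM under DMSO. After carfilzomib they had 14.6, 25.2 and 40.4 CPM in replicates 1, 2 and 3 (2.13 ± 0.25, adjusted p 1.8e-05), so the rise was present in all 3 libraries and differed in size between them. These rows share identifiers, and how reads that match several copies were counted is not given. The level of the sum and its spread between libraries are therefore uncertain. BAG3, the co-chaperone that links HSP70 to HSPB8, rose from 60.98, 57.7 and 58.7 to 94.7, 96.4 and 97.96 CPM (0.70 ± 0.04). DNAJB4 and DNAJB6, HSP40 co-chaperones, rose by 0.50 and 0.42, and HSPH1, a nucleotide exchange factor of HSP70, by 0.32. HSPA8, the constitutive HSP70, was at 2383, 2139 and 2399 CPM and then at 2256, 2295 and 2284 (-0.018 ± 0.036, adjusted p 0.74), with overlapping groups. DNAJB1, a HSP40 that is strongly heat-inducible in most cells, was not called either (-0.065 ± 0.04, adjusted p 0.244). HSP90AB1 rose by 0.13, and HSPD1, the mitochondrial chaperonin, had -0.061 (adjusted p 0.102).

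Genes of the NRF2 programme, which makes glutathione, recycles thioredoxin, degrades haem and supplies NADPH, rose in 17 of 25 cases and fell in 1, with a median of 0.38. ME1, malic enzyme, which makes NADPH in the cytosol, went from 8.33, 8.96 and 9.16 to 28.04, 33.4 and 31.4 CPM (1.82 ± 0.08, adjusted p 2.3e-09). HMOX1, haem oxygenase, had 49.2, 51.8 and 49.4 CPM under DMSO and 121, 138 and 131 after carfilzomib (1.38 ± 0.049). Both genes had carfilzomib libraries at more than 2 times the highest DMSO library. The genes next to HMOX1 in haem and iron handling also rose: BLVRB, biliverdin reductase, by 0.96, and FTL, the light chain of ferritin, from 524, 549.5 and 551 to 890.2, 938 and 999 CPM (0.80 ± 0.039). The heavy chain FTH1 was not called (-0.0099 ± 0.067, adjusted p 0.93). GCLM, the modifier subunit of glutathione synthesis, rose by 0.65, PRDX1, a peroxidase, by 0.48, and TXNRD1, thioredoxin reductase, by 0.14. NQO1, a widely used readout of NRF2, did not pass the test, at 348, 377 and 371 CPM and 357, 375 and 386 (0.03 ± 0.039, adjusted p 0.608). Nor did SLC7A11, the cystine carrier (0.10 ± 0.042, adjusted p 0.068), or the NADPH enzyme PGD (0.00084, adjusted p 0.994). The metallothioneins, which bind zinc, moved the other way: of 6 tested members of their list 3 fell and 1 rose, with MT1E at -0.36 and MT2A at -0.20, while the zinc exporter SLC30A1 was the member that rose, by 0.23. Without DMSO replicate 3 or carfilzomib replicate 2, 1 metallothionein was called lower, and MT2A was at -0.13 (edgeR adjusted p 0.095) and -0.17 (0.053).

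Autophagy genes rose in 21 of 35 cases and fell in 1 (median 0.15), and lysosomal genes in 27 of 51 with 5 falls (median 0.23). GABARAPL1, an ATG8 protein of the autophagosome membrane, went from 224, 221 and 212 to 326, 355 and 326 CPM (0.62 ± 0.04). Its relative MAP1LC3B rose by 0.80 and ATG4A, the protease that processes ATG8 proteins, by 0.94. TAX1BP1, a receptor for ubiquitin-tagged cargo, rose by 0.62, whereas NBR1, another such receptor, was not called (0.084 ± 0.044, adjusted p 0.167). CTSD, the lysosomal aspartyl protease, more than doubled, from 137, 143 and 140.3 to 310.3, 293 and 311 CPM (1.12 ± 0.037, adjusted p 2.9e-10). GLA, alpha-galactosidase, rose by 0.95, CTSL, a cysteine protease, by 0.79, and NPC1, the cholesterol carrier of the lysosome, by 0.71. LAMP2, a membrane protein of the lysosome, rose by 0.61, and PSAP, a cofactor of lipid hydrolases, was not called (0.054, adjusted p 0.168). The 5 lysosomal falls were 3 without carfilzomib replicate 2 or DMSO replicate 1.

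Genes of the integrated stress response, in which the factor ATF4 raises amino acid synthesis and transport, were split, with 7 higher and 10 lower of 29 (median -0.01). ATF4 itself fell from 315, 313 and 312 to 249, 237 and 266 CPM (-0.32 ± 0.04, adjusted p 3.4e-05). CHAC1, a glutathione-degrading enzyme that is among the most responsive ATF4 targets, fell from 12.1, 12.8 and 13.4 to 6.93, 5.03 and 6.63 CPM (-1.05 ± 0.12). PHGDH, MTHFD2 and SHMT2, enzymes of serine and folate metabolism, were at -0.62, -0.13 and -0.11, all called lower. Against these, CTH, which makes cysteine from cystathionine, rose almost 4-fold, from 23.8, 25.1 and 22.8 to 79.4, 99.5 and 94.2 CPM (1.94 ± 0.072, adjusted p 7.9e-10). ATF3 rose by 0.62 and DDIT3, the factor CHOP, by 0.50. The unfolded protein response of the endoplasmic reticulum was mixed too, with 10 higher and 6 lower of 29 (median 0.05). The sensors ATF6 and ERN1 rose by 0.48 and 0.46 and the co-chaperones DNAJB9 and DNAJC3 by 0.64 and 0.41. PDIA4 and CALR, which fold proteins in the same compartment, fell (-0.30 and -0.29). HYOU1 was called from 1 library: its row shares its identifier and had 2.02, 17.9 and 1.99 CPM after carfilzomib, and without carfilzomib replicate 2 its change was -0.015 (adjusted p 0.968). The 10 genes of the unfolded protein response called higher were 6 without that library and 5 without DMSO replicate 1 or 2. The call of SHMT2 was lost without carfilzomib replicate 2 (edgeR adjusted p 0.075) or DMSO replicate 3 (0.097).

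Of 22 targets of p53, 7 were higher and 6 lower (median -0.07). CDKN1A, the cell cycle inhibitor p21, rose from 122, 121 and 120.2 to 193, 188 and 186 CPM (0.64 ± 0.035) and GADD45A from 59.8, 62.8 and 64.3 to 105, 113 and 111 (0.81 ± 0.044). Falls were seen for FDXR (-0.67), the repair factor DDB2 (-0.41), the death receptor FAS (-0.46) and MDM2, the ubiquitin ligase of p53 (-0.14). In the BCL2 family, 4 of 16 genes rose and 5 fell. MCL1, which blocks apoptosis, rose from 768, 858 and 805 to 970.4, 1027 and 1059.8 CPM (0.33 ± 0.041), and PMAIP1, the protein NOXA that opposes it, from 15.2, 14.1 and 17.1 to 18.1, 22.5 and 19.3 (0.37 ± 0.094). BCL2 (-0.56) and BAX (-0.21) fell. Without carfilzomib replicate 2, 3 targets of p53 were higher, 3 genes of the BCL2 family lower, and PMAIP1 missed the threshold (0.26, edgeR adjusted p 0.053). Without DMSO replicate 1, 4 targets of p53 were higher, and without DMSO replicate 3, 3 genes of the BCL2 family were lower.

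Immediate early genes and feedback regulators of growth factor signalling formed a rising group, 18 of 26 higher and 2 lower, with a median of 0.45. DUSP5 (ENSG00000138166, chromosome 10, 110497838 to 110511544, plus strand), a nuclear phosphatase of the kinase ERK, went from 14.1, 12.1 and 14.1 to 35.02, 37.9 and 39.4 CPM (1.47 ± 0.073, adjusted p 6.7e-09). FOS, a partner in AP-1, rose from 49.8, 52.7 and 52.5 to 93.6, 98.5 and 104 CPM (0.94 ± 0.047), and FOSB from 5.18, 5.13 and 4.52 to 11.4, 12.5 and 12.1 (1.29 ± 0.11). JUN rose by 0.65, FOSL1 by 0.68 and JUNB by 0.45, while JUND fell (-0.43). MYC, the growth-promoting factor, was at 188, 195 and 197 CPM under DMSO and at 327, 324 and 319 after carfilzomib (0.74 ± 0.034, adjusted p 3.3e-09). All of these had groups that did not overlap. HBEGF, a ligand of the EGF receptor, rose from 5.65, 5.24 and 4.78 to 16.8, 21.3 and 17.3 CPM (1.83 ± 0.11).

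CDH1 (ENSG00000039068, chromosome 16, 68737225 to 68835548, plus strand), which encodes E-cadherin, the adhesion protein of epithelial cells, was among the clearest falls in H-23: 115, 108 and 116 CPM in the DMSO libraries and 31.4, 27.5 and 30.8 after carfilzomib, a log2 fold change of -1.92 ± 0.053 (adjusted p 5.3e-11). On the fitted scale it fell by 73.6%. The lowest DMSO library was more than 3 times the highest carfilzomib library. Of the other listed epithelial genes, KRT7, KRT8, KRT18, KRT19, CLDN4, EPCAM and ESRP1, none was called lower. ESRP1 and KRT7 averaged 0.31 and 1.47 CPM under DMSO, and their changes were imprecise (-0.35 ± 0.58 and -0.29 ± 0.29). Falls in them could have gone uncalled. EPPK1 (-1.06), a plakin of epithelial cells, and SDC1 (-0.48), a proteoglycan of their surface, fell. KRT8 was at 1807, 1883 and 1900.2 and 1768, 1850.1 and 1875 CPM (-0.025 ± 0.028, adjusted p 0.542), KRT18 rose by 0.18, and EPCAM, at about 5 CPM in all libraries, was not called (0.092 ± 0.13, adjusted p 0.647). Among mesenchymal genes ZEB1, a repressor of CDH1, rose from 53.7, 52.8 and 52.1 to 73.3, 75.6 and 74.2 CPM (0.49 ± 0.039) and VIM by 0.15. CDH2 and FN1, N-cadherin and fibronectin, fell (-0.37 and -0.40). In the whole list of epithelial, mesenchymal and matrix genes 11 of 27 were higher and 7 lower. CCN2, a matrix-associated growth regulator, rose from 38.9, 36.5 and 38.1 to 93.6, 97.5 and 87.1 CPM (1.29 ± 0.049), its relative CCN1 by 0.99, and COL5A1, a fibrillar collagen, fell (-1.50).

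**Figure D3:**
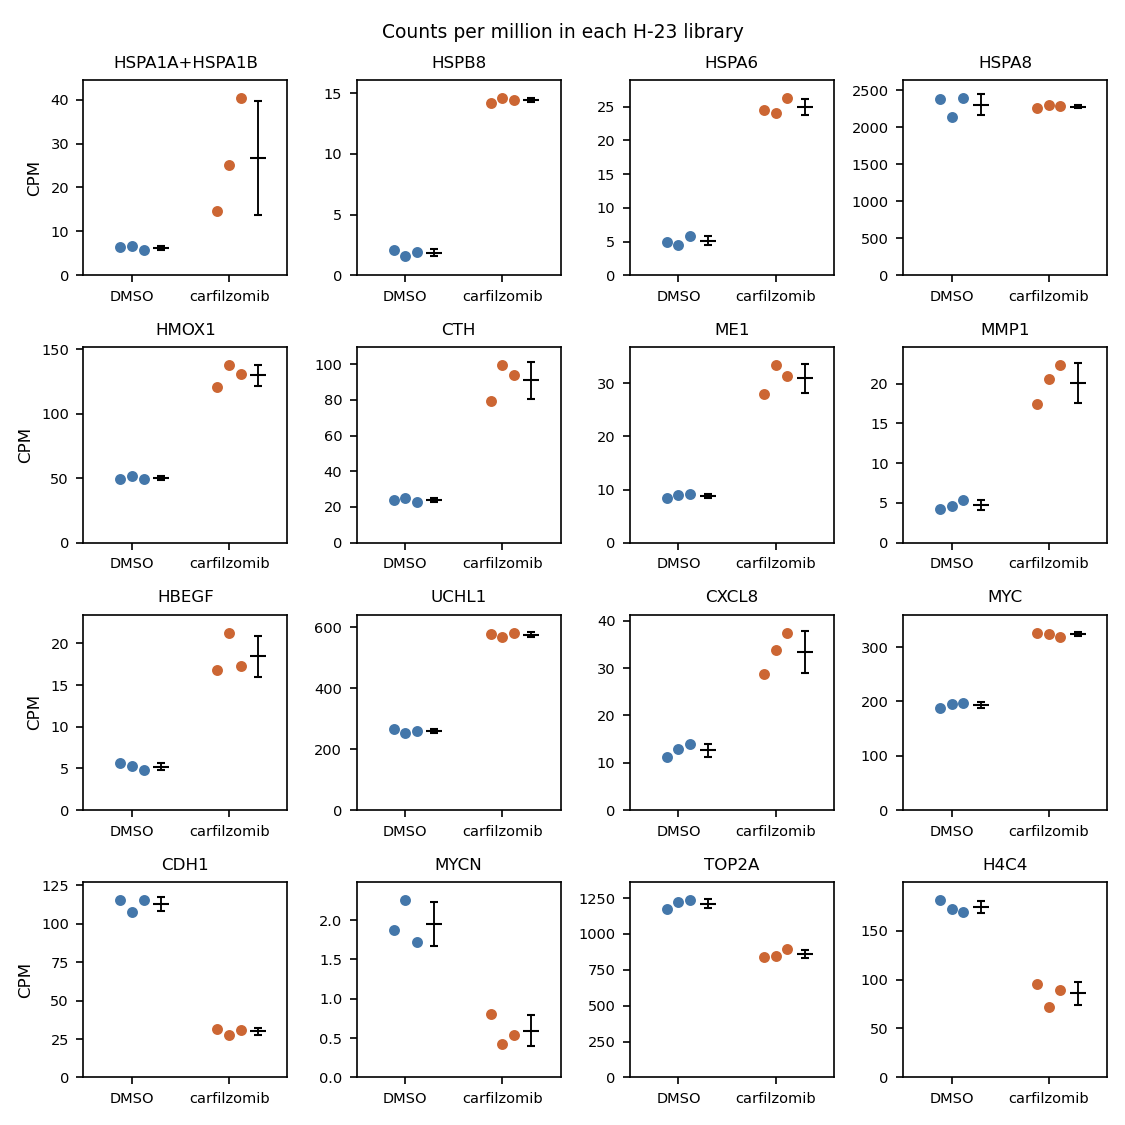
CPM in each H-23 library for 16 genes (the first panel sums HSPA1A and HSPA1B), 3 DMSO and 3 carfilzomib libraries per panel, with mean and SD beside them and axes from 0. HSPA8 stays level, CDH1, MYCN, TOP2A and H4C4 fall, and the other panels rise with no overlap between the groups.

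Targets of NF-kB, the inflammatory factor whose inhibitor the proteasome degrades, were called higher in 11 of 24 cases and lower in 3 (median 0.13). The rises were led by chemokines that attract neutrophils: CXCL8 from 11.2, 12.9 and 13.9 to 28.8, 33.9 and 37.5 CPM (1.40 ± 0.097), CXCL2 from 18.2, 20.6 and 19.8 to 40.7, 41.4 and 43.6 (1.11 ± 0.06) and CXCL1 from 21.5, 24.8 and 23.3 to 43.7, 48.5 and 51.8 (1.06 ± 0.069). ICAM1, an adhesion protein for leukocytes, rose from 274, 258 and 279 to 468, 476 and 473 CPM (0.80 ± 0.035). The inhibitor gene NFKBIA fell (-0.14), and BIRC3 and NFKB2 were not called (-0.025 ± 0.039 and -0.00073 ± 0.034, adjusted p 0.675 and 0.99). Of 22 interferon-stimulated and antigen presentation genes, 5 were higher and 6 lower. HLA-B, among those called higher, is uncertain, since its identifier has 4 rows and this one reached no more than 1.16 CPM. OAS3, a sensor of double-stranded RNA, fell (-0.64), as did IFIH1 (-0.64), while STAT2 rose by 0.41 and IFIT5 by 0.75. The 3 targets of NF-kB called lower were 1 without DMSO replicate 3.

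Proliferation genes fell by moderate amounts. Of 43 genes of DNA replication, 35 were lower and 1 higher (median -0.31), and of 38 genes of G2 and mitosis, 33 were lower and none higher (median -0.29), where 16.2% of all genes were lower. TOP2A, the topoisomerase that untangles replicated DNA, fell from 1173, 1226 and 1238 to 837, 847 and 894 CPM (-0.50 ± 0.032, adjusted p 6.0e-08). MYBL2, a factor for genes of late cell cycle, was at 266, 276 and 276 CPM and then at 187, 171 and 174 (-0.62 ± 0.039). CDK1, the kinase of mitotic entry (-0.54), and AURKB, a kinase of chromosome segregation (-0.61), fell. CENPA, the histone of the centromere, fell from 68.2, 75.3 and 69.2 to 42.3, 45.9 and 50.3 CPM (-0.61 ± 0.06). For replication, PCNA, the sliding clamp, was at 169, 167 and 173 and 119, 119.8 and 126 CPM (-0.48 ± 0.038). LIG1, DNA ligase (-0.56), MCM7, of the helicase (-0.42), and TK1, thymidine kinase (-0.54), fell as well. RRM2, of ribonucleotide reductase, was not called (-0.047 ± 0.031, adjusted p 0.277). RNA amounts per cell and shares of cells in each phase cannot be told apart in bulk samples.

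Replication-dependent histones, whose RNAs are made in S phase, fell most as a group: 48 of 56 lower, none higher, median -0.73. H4C4 went from 181, 172 and 169 to 95.5, 72.4 and 89.8 CPM (-1.03 ± 0.074, adjusted p 1.9e-07), H2BC18 from 222, 260.3 and 245 to 126, 104 and 133 (-1.01 ± 0.076) and the linker histone H1-5 from 694, 742 and 708 to 451, 353 and 438 (-0.79 ± 0.067). Carfilzomib replicate 2 was the lowest library for each of these. How reads were split among these nearly identical gene copies is uncertain. Their RNAs mostly lack a poly(A) tail, and the libraries were made from total RNA.

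Among called genes, ribosomal protein genes were mostly lower and genes of ribosome biogenesis mostly higher, and the medians of both lists were small. Of 71 ribosomal protein genes 31 were lower and 1 higher, by small amounts (median -0.09), with RPS2 at -0.30 and RPLP0 at -0.13. The 1 higher, RPS9, is uncertain, since its identifier has several rows and this one reached no more than 1.17 CPM. With library totals as the scale 49 were lower. Of 32 genes of ribosome biogenesis 11 were higher, 3 lower and 18 not called (median 0.08). RRP12, which exports the small subunit's precursor, rose from 127, 117 and 121 to 195, 194 and 189 CPM (0.66 ± 0.04), and NOLC1 rose by 0.23. The nucleolar proteins NCL and NPM1 were not called (-0.008 and 0.068, adjusted p 0.913 and 0.121). FBL was called from 1 library on a row that shares its identifier, with 21.2, 0.429 and 0.458 CPM after carfilzomib, and without carfilzomib replicate 1 it was at 0.45 (adjusted p 0.522). Without that library NPM1 was called higher (0.093, edgeR adjusted p 0.021).

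Metabolic genes showed little net shift. Genes of cholesterol and fatty acid synthesis were higher in 6 and lower in 6 of 32 cases (median 0.01), with SREBF1, a controlling factor of lipid synthesis, down (-0.59). FASN and SCD, of fatty acid synthesis, were not called (-0.11 and -0.079, adjusted p 0.068 and 0.222). Of 31 genes of hypoxia and glycolysis 11 were higher and 5 lower (median 0.04): PFKFB3, which stimulates glycolysis, rose by 0.66 and the hexokinase HK2 by 0.44, TPI1 fell (-0.16), and GAPDH did not pass the test (-0.00041 ± 0.023, adjusted p 0.992). Of 19 cytosolic aminoacyl-tRNA synthetases, which charge tRNAs, 3 rose and 6 fell (median 0.03), with WARS1 up by 0.38 and QARS1 down (-0.18). The falls were 3 of the synthetases without DMSO replicate 2 and 3 of the glycolytic list without carfilzomib replicate 1. Without carfilzomib replicate 3, FASN (-0.16, edgeR adjusted p 0.014) and SCD (-0.14, 0.023) were called lower.

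Ranked by fold change, the 12 largest rises among called genes whose identifier has a single row, with at least 50 counts on average in the higher group and no overlap, were HSPB8, DYNC1I1, HSPA6, MMP1, CTH, TMEM40, HBEGF, ME1, MMP10, NAP1L2, ANKRD1 and TUBA4A. DYNC1I1, an intermediate chain of the dynein motor known from neurons, had 0.214, 0.364 and 0.398 CPM under DMSO and 2.28, 2.09 and 2.21 after carfilzomib (2.73 ± 0.28). The collagenase MMP1 went from 4.23, 4.62 and 5.39 to 17.4, 20.5 and 22.3 CPM (2.08 ± 0.12) and its neighbour on chromosome 11, the stromelysin MMP10, from 1.31, 1.17 and 1.23 to 3.39, 4.66 and 4.82 (1.80 ± 0.19). TUBA4A, an alpha-tubulin, went from 6.60, 6.23 and 7.40 to 21.6, 24.3 and 21.1 CPM (1.72 ± 0.093), and ANKRD1, a target of mechanical and YAP signalling, from 0.570, 0.510 and 0.416 to 1.27, 1.97 and 1.62 (1.72 ± 0.28). NAP1L2 and TMEM40 rose by 1.73 and 1.89. The 12 largest falls were IKBKGP1, PCDH20, CDH1, RORB, MYCN, PRLR, NKAIN2, VAT1L, TMSB15A, COL5A1, SCN4B and NEDD9. Apart from CDH1, PRLR and COL5A1, these genes were under 3 CPM in every library, so that their values rest on few counts. Among the rises, DYNC1I1 and ANKRD1 were also under 3 CPM in every library, with the same limit. PRLR, the prolactin receptor, fell from 5.98, 6.08 and 5.90 to 2.33, 1.92 and 1.89 CPM (-1.56 ± 0.15). MYCN, the relative of MYC, went from 1.88, 2.26 and 1.72 to 0.810, 0.429 and 0.539 CPM (-1.76 ± 0.27), opposite in direction to MYC. IKBKGP1 is a pseudogene at 0.783, 0.473 and 2.97 CPM under DMSO, so its fall rests largely on DMSO replicate 3, without which it was at -1.59 (adjusted p 0.035). Ranked by CPM, the largest rises were EEF1A1, RMRP, FLNA, AKAP12 and TFPI2, and the largest falls PRKDC, TUBA1B, TOP2A, H1-5 and TAGLN2. FLNA, which crosslinks actin, went from 2703, 2708 and 2693 to 3464, 3396 and 3479 CPM (0.35 ± 0.02), and EEF1A1, the elongation factor, from 8915, 8986 and 9119 to 9451, 10217 and 10385 (0.15 ± 0.028).

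The effect in H-23 was tested against the mean effect of the other 7 lines, in 1 fit of all 48 libraries. The SE and p of this test rest on the spread among replicate cultures within groups, and not on the spread between lines. A call therefore does not place H-23 outside the range of the other lines. Of 22309 genes, 3794 differed (17%), 2235 with H-23 above (10%) and 1559 with H-23 below (6.99%). Values in the next sentences are log2 fold changes from that fit. Lists of stress genes went in different directions. H-23 was below the other lines for many members of 3 of them: below their mean for 13 of 27 chaperones and above for 1, below for 16 of 32 proteasome subunits and above for none, and below for 12 of 30 NRF2 genes and above for 1. It was above for 12 of 29 genes of the unfolded protein response and below for 3, above for 5 of 17 genes of proteasome assembly and regulation and below for 0, and above for 7 and below for 5 of 31 genes of the integrated stress response. HSPA6 was 2.24 in H-23 and 4.94 on average elsewhere (difference -2.70 ± 0.39 SE, adjusted p 1.1e-06), with 5 of the other lines above H-23. BAG3 was 0.68 against 1.36 (adjusted p 5.6e-07), HMOX1 1.35 against 2.04 (0.00086) and GABARAPL1 0.59 against 1.91 (3.9e-17). For BAG3 and HMOX1, 3 of the other lines lay below H-23 and 4 above, and for GABARAPL1 2 below and 5 above. For HSPB8 no difference was called (2.91 against 3.31, adjusted p 0.45), but 3 of the other lines had under 10 counts of it over their 6 libraries and H-929 had a group with none, so the mean depends on the fit. CHAC1 was -1.08 against -0.0078 (adjusted p 1.6e-05), with other lines from -2.67 to 3.38. UBB, down in H-23, was -0.41 against -0.0039 (adjusted p 1e-05), and other lines ran from -1.09 to 0.75. H-929 and RPMI, among the other lines, are of multiple myeloma. Against the mean of the 5 lines that are not of multiple myeloma, a comparison chosen after seeing the data, the differences were no longer called for BAG3 (-0.22, adjusted p 0.191), HMOX1 (-0.11, 0.905), CHAC1 (-0.16, 0.811) and UBB (-0.18, 0.097). They remained called and were smaller for HSPA6 (-1.55, adjusted p 0.0089) and GABARAPL1 (-0.85, 6.4e-11). In that comparison 4.2% of all genes were above and 4.11% below. Of the lists, 5 chaperones, 18 proteasome subunits and 10 NRF2 genes lay below. The unfolded protein response had 4 above and 7 below, proteasome assembly and regulation 0 above and 2 below, and the integrated stress response 12 above and 1 below, so the balance of the first 2 of these lists turned.

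For other genes the effect in H-23 lay above the mean of the other lines. DUSP5 was 1.45 in H-23 and -0.089 on average elsewhere (difference 1.54 ± 0.085, adjusted p 1.8e-17), and H-23 exceeded all 7. MYC was 0.72 against -0.15 (adjusted p 4.3e-13), above 6 of the 7, whose values ran from -1.12 to 0.75. HBEGF was 1.81 against 0.56 (2.5e-08) and CTH 1.92 against 0.69 (4.1e-10). B3GNT5, a glycosyltransferase, was 1.36 against -0.39 (1.4e-13), KLF15, a zinc finger factor, 0.98 against -0.80 (2.7e-06) and NT5E, the ectonucleotidase CD73, 0.65 against -0.86 (3e-15). For KLF15, 1 of the other lines had under 10 counts over its 6 libraries, so the mean of those lines is uncertain. H-23 was above the mean of the other lines for 19 of 33 genes of cholesterol and fatty acid synthesis and below it for none. It was above for 13 of 19 aminoacyl-tRNA synthetases and 20 of 32 genes of ribosome biogenesis, and below for none of either. Against the 5 lines that are not of multiple myeloma these counts were 15, 7 and 3, where 4.2% of all genes were above. In the lipid list, CYP51A1 was 0.42 against -0.44 (1.9e-14) and SCD, level in H-23, -0.10 against -0.88 (3.5e-10). The median of that list was 0.01 in H-23 and -0.44 on average over the other lines. CCN2 and ICAM1 were also above, by 0.98 and 0.54 (adjusted p 0.0017 and 7.4e-10), as was VIM, 0.13 against -0.47 (9.2e-07). The fitted fall of CDH1 in H-23 was larger than the fitted values of the other lines, which ran from -1.78 to 2.75, but 2 of those lines had under 10 counts of CDH1 over their 6 libraries. The test of its difference gave an adjusted p of 0.038, in a fit where H-1299 has a group with no count of CDH1. That call was lost without carfilzomib replicate 2 (0.053), without DMSO replicate 1 (0.051) and against the 5 lines that are not of multiple myeloma (0.113).

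**Figure D4:**
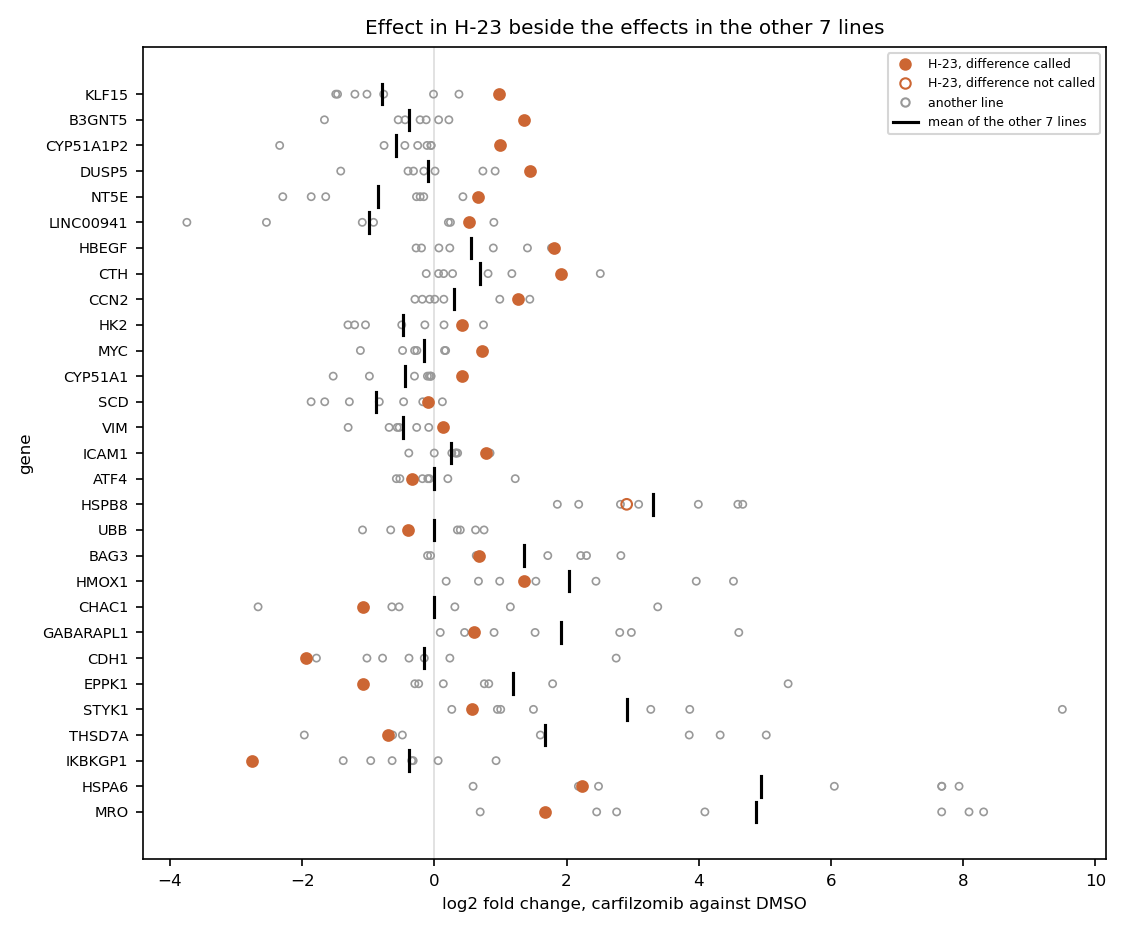
Log2 fold change, carfilzomib against DMSO, in H-23 (orange, filled where its difference from the other lines was called) and in each of the other 7 lines (grey), with their mean (black bar), for 29 genes ordered by the difference. HSPB8 is the single gene shown whose difference was not called.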

How the data were processed

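Total RNA of 6 H-23 cultures, and of 42 cultures of the other 7 lines, was sequenced. The authors deposited raw read counts per gene, 33892 rows by 48 libraries. Per the labels' protocols, RNA was extracted with Qiazol and made into stranded total RNA libraries. The submitters' processing notes name hg38, bcl2fastq 2.19, FastQC, Trimmomatic, HISAT2 and DESeq2, with no roles. The counting program, the annotation and the use of strand are not given in the sources used here, so antisense and overlapping genes are uncertain. Of all rows, 4803 share an Ensembl identifier with another row (0.686% to 0.720% of an H-23 library), and single rows of this kind are uncertain. The 8 rows of HSPA1A and HSPA1B were summed.

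Counts were tested by edgeR 4.0.16 (quasi-likelihood F test, R 4.3.3) with TMM normalization, the filterByExpr filter and Benjamini-Hochberg adjustment over all tested genes at 0.05. The difference from the other 7 lines was a contrast in 1 fit of 48 libraries with 16 groups. Chi-square per degree of freedom between replicates was 3.97 to 6.11, above counting noise, and no library was merged. Depth sets counting error only. Gene positions are those of GENCODE on GRCh38 by identifier, and promoters those of RefSeq on GRCh38.p14.

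Members and the 26 gene lists (796 genes) were chosen with earlier results of these data known, so lists are described by counts and medians and not tested. Named genes are the called members with the largest changes (up to 5) and the members with the highest CPM (up to 3) in each list. Added to these are the 12 largest rises and falls by fold and the 5 by CPM, among called genes whose identifier has a single row, with at least 50 counts on average in the higher group and no overlap, and the 6 largest differences from the other lines in each direction. Other members of the lists were named after their values were seen. Alternatives were DESeq2 1.42.0, other scalings, filters and nulls, a replicate block, omitted libraries and other treatment of rows that share an identifier. The list of mitochondrially encoded mRNAs and the NKX2-1 marker were not analysed here.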

Additional observations from a re-analysis of the deposited data

Results flagged for a closer look

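The effect of carfilzomib in H-23 differed from the mean effect in the other 7 lines for 2235 genes that lay above it and 1559 that lay below it, by the test of that difference in 1 fit of all libraries. In H-23 the differences, on the log2 scale, were 1.54 for DUSP5, 1.75 for B3GNT5, 1.78 for KLF15, 1.51 for NT5E, 1.56 for the pseudogene CYP51A1P2 and 1.51 for the noncoding LINC00941. They were 1.22 for CTH, 1.25 for HBEGF, 0.98 for CCN2, 0.88 for HK2, 0.87 for MYC, 0.87 for CYP51A1, 0.78 for SCD, 0.60 for VIM and 0.54 for ICAM1. Below the mean of the other lines, the difference was -3.19 for MRO, -2.70 for HSPA6, -2.38 for THSD7A, -2.34 for STYK1, -2.27 for EPPK1, -2.38 for the pseudogene IKBKGP1 and -1.78 for CDH1. It was -1.32 for GABARAPL1, -1.07 for CHAC1, -0.69 for HMOX1, -0.68 for BAG3, -0.40 for UBB and -0.34 for ATF4. For each gene of the last sentence, other lines lay on both sides of H-23. Those below it numbered 3 for HMOX1 and BAG3, 2 for GABARAPL1, UBB and ATF4, and 1 for CHAC1.

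The differences for MRO, STYK1, THSD7A, LINC00941 and CDH1 involve lines where a whole group of libraries had no count of the gene, so their size depends on the fit. Such lines numbered 3 for MRO, 2 for LINC00941 and 1 each for STYK1, THSD7A and CDH1. EPPK1, a plakin of epithelial cells, fell in H-23 from 27.8, 28.7 and 28.1 to 14.02, 11.5 and 15.1 CPM, and its log2 fold change lay in the range -0.29 to 5.35 in the other lines.

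Against the 5 lines that are not of multiple myeloma, a comparison chosen after seeing the data, the difference was -1.32 for EPPK1, -0.83 for STYK1 and 0.65 for LINC00941, all still called, and it was no longer called for THSD7A (-1.18, edgeR adjusted p 0.152) or ATF4 (-0.11, 0.319), nor for BAG3, HMOX1, CHAC1, UBB or CDH1. The call of IKBKGP1 was lost without DMSO replicate 3 (-1.18, edgeR adjusted p 0.536) and without each carfilzomib library in turn. The call of LINC00941 was lost when rows that share an identifier were left out (adjusted p 0.055). No group held more than 3 libraries, so single libraries were not screened for outlying values.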

How the results depend on the processing

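The count of genes called in H-23, 3192 higher and 2929 lower, depended most on the null hypothesis: against a fold change of 1.5, 136 were higher and 71 lower, and 51 in place of 469 genes of the lists were called. In 1 fit of all 48 libraries 1863 were higher and 2021 lower. With library totals 2770 were higher and 3401 lower, 44.9% of calls being higher in place of 52.1%, and the median log2 fold change of all genes moved from 0.0025 to -0.025. The Wald test of DESeq2 called 3035 higher and 2910 lower. Without 1 library in turn the counts were 2520 to 2908 higher and 2479 to 2866 lower, and 427 to 461 list genes. The sum of HSPA1A and HSPA1B was 1.68 to 2.39 without 1 library in turn, lowest without carfilzomib replicate 3, and was called under each alternative run. For the difference from the other 7 lines, 36 genes were above and 65 below against a fold change of 1.5, 937 and 916 against the mean of the 5 lines that are not of multiple myeloma, and 1724 to 2224 and 1177 to 1326 without 1 H-23 library in turn. Among named genes called in the main fit, the single change of direction was that of HYOU1, -0.015 without carfilzomib replicate 2. Its values ran from -0.015 to 2.34 without 1 library in turn. Values that were not called could change sign. The difference for HSPB8 was -0.40 against the other 7 lines and 0.13 against the 5 that are not of multiple myeloma. Over all alternatives run, 268 values of named genes lost their call and 27 gained one, while 3299 kept their side of the threshold. The causes were not tested.

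Replicate numbers are shared between the groups, but deviations from the group means correlated at 0.021, 0.0040 and 0.025 between libraries of the same number. No shared effect of the number was thus seen in the RNA. These values cannot tell whether cultures of the same number were set up together. With a replicate block 3206 genes were higher, 2995 lower and 489 list genes called, the sum of HSPA1A and HSPA1B was 2.03, and 2117 and 1513 genes differed from the other lines. Depth limits genes with few counts, such as those under 3 CPM among the largest rises and falls.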

Other observations

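Genes of microtubule transport and structure had no list of their own above. The families in this section were chosen after values were seen, and some of their members were already in the lists above. Among kinesins, KIF11 and KIF20A were also counted among the falls of G2 and mitosis. Subunits of cytoplasmic dynein and dynactin, the motor that carries cargo toward the cell centre, the ciliary form of dynein included, rose in 12 of 18 cases and fell in 0 (median log2 fold change 0.25), beside 17.7% of all genes called higher. DYNC1H1, its heavy chain, went from 956, 986 and 999 to 1526, 1542 and 1503 CPM (0.64 ± 0.026, adjusted p 1.3e-09). DCTN4, of dynactin, rose by 0.48 and DYNC1LI1, a light intermediate chain, by 0.35. Kinesins, which mostly carry cargo outward or act in mitosis, rose in 5 and fell in 16 of 36 cases (median -0.14). The neuronal cargo kinesins KIF1A and KIF1B rose (0.72 and 0.59), and mitotic ones such as KIF23 and KIF11 fell (-0.42 and -0.35). Of 20 tubulin genes, pseudogenes included, 7 rose and 2 fell: TUBB4A, TUBB2A and TUBB2B, isotypes abundant in the nervous system, rose (1.12, 0.89 and 0.79) beside TUBA4A (1.72), while TUBA1B fell (-0.27). TUBB2A and TUBB2B are near-identical copies whose reads the counting could split. MAP1B, a microtubule-associated protein of neurons, rose from 53.6, 57.3 and 58.4 to 179, 186 and 164 CPM (1.64 ± 0.051).

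Among ligands of the EGF receptor family, 5 of 9 rose and 1 fell: AREG went from 6.24, 5.97 and 6.50 to 13.7, 14.7 and 13.3 CPM (1.15 ± 0.098) and EREG rose by 0.75, while TGFA fell (-0.68). Collagen chains rose in 3 and fell in 14 of 37 cases (median -0.24), with COL15A1 at -1.17 and COL12A1 at -0.70. Small nucleolar and Cajal body RNAs rose in 7 and fell in 16 of 230 cases. CLU, a secreted chaperone that was on no list, rose from 79.5, 82.5 and 86.7 to 171, 173 and 180.3 CPM (1.07 ± 0.043), PTGS2, the inducible cyclooxygenase, by 1.16, and ABCB1, the drug efflux pump P-glycoprotein, for which carfilzomib is a known substrate, from 0.878, 0.546 and 0.869 to 1.92, 2.37 and 1.32 CPM (1.26 ± 0.28, adjusted p 0.0031). Of 14090 protein-coding genes tested, 20.9% were called higher and 19.3% lower, of 1352 long noncoding RNAs 6.07% and 5.47%, and of 1658 pseudogenes 4.95% and 3.80%. The gene types were not matched for counts, which limit what can be called, so these shares do not compare the size of their responses.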
